A study of Mus musculus with 3 samples.

Results

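Mir320, Mir484 and Mir877 are microRNA genes described in mouse cells as made without the full Microprocessor step, and their reads were followed in 3 small RNA libraries of mouse oocytes. They were picked by gene symbol in GENCODE M21, with earlier results of these data known but no measured value in the rule, and are 3 of the 2201 microRNA hairpins annotated there. All 3 had reads. Mir320 was among the more abundant microRNAs, and Mir484 was found at far lower levels. Mir877 had 14 reads whose first 20 nt matched. Of these 14, 2 followed the hairpin at base 22, 2 had base 22 past its end, and the rest differed from it there. Their origin is not settled here. No library lacking Drosha or Dgcr8 was analysed here, so whether these oocytes made the hairpins without them was not tested.

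The RNA came from fully grown oocytes, the end stage of oocyte growth, of mice given 5 IU of PMSG (a hormone preparation that stimulates follicle growth) 48 hours earlier. Genotype, strain and age of the mice, and the number of oocytes pooled, are not given in the sources used here. Each gel window, 19-24, 24-30 or 19-30 nt, was read as 1 library, with no replicate, so no test between conditions could be made. The 19-24 and 24-30 nt windows divided the RNA between them, and the 19-30 nt window was cut, prepared and read apart from them; library, run and window cannot be told apart.

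Most animal microRNAs are cut out of a long transcript by the Microprocessor, the nuclease Drosha with its RNA-binding partner Dgcr8, and then cut by Dicer to a short duplex, one strand of which is kept by an Argonaute protein. A few hairpins bypass the first cut. The Mir320 hairpin is known to be formed directly by transcription, with a capped 5′ end at the transcription start, and Mir877 is a mirtron, a short intron that folds into a hairpin once it is spliced and debranched; Mir484 has been listed among the Dgcr8-independent, Dicer-dependent microRNAs of mouse embryonic stem cells. In mouse oocytes loss of Dgcr8 is known to leave maturation intact while loss of Dicer does not.

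The mature sequences that the reads were set against are shown because the reads' first bases, and so their seeds, are the main readout here. They are those of RefSeq on GRCm38.p6, written 5′ to 3′ with the seed, bases 2 to 8, in capitals. Mir484 has 1 mature product in that table and Mir877 has 1 from each arm.
mmu-miR-484, chr16:14159630-14159651, plus strand: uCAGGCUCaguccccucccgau
mmu-miR-877-5p, chr17:35960795-35960814, minus strand: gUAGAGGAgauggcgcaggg
mmu-miR-877-3p, chr17:35960731-35960752, minus strand: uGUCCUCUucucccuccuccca
None of these seeds was shared by any other of the 1679 mature entries of the table. Mir320 is named only.

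The surroundings of the 3 hairpins in GENCODE M21 (GRCm38) differ. Mir320 (chr14:70443510-70443591, plus strand, 82 nt) lies 63 nt from the start of Polr3d, which encodes a subunit of RNA polymerase III and is transcribed the other way. Mir484 (chr16:14159626-14159692, plus strand, 67 nt) lies within the gene Marf1, on the opposite strand, where its last 19 nt overlap exon 2 of the transcript Marf1-202; the start of Nde1, on the strand of Mir484, is 3583 nt downstream. Mir877 (chr17:35960730-35960814, minus strand, 85 nt) fills, base for base, the intron between exons 12 and 13 of Abcf1-201, a transcript of the ATP-binding cassette gene Abcf1. The hairpins share a high GC content, 63.4% for Mir320, 58.2% for Mir484 and 61.2% for Mir877, against a median of 49.5% over the 185 hairpins with at least 100 reads. Their predicted folding energies do not share a side: -45.8 kcal/mol for Mir320, -24.6 for Mir484 and -36.5 for Mir877, against a median of -36.7.

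Depth sets what can be seen of each. The 19-24, 24-30 and 19-30 nt libraries held 764539, 1484509 and 943811 reads, of which 315593, 344547 and 146977 matched a transcript and 247015, 23614 and 25278 were microRNA reads. MicroRNAs were thus 78.3% of matched reads at 19-24 nt, 6.85% at 24-30 nt and 17.2% at 19-30 nt, and a hairpin with 0 reads could still hold up to 0.00121%, 0.0127% and 0.0119% of them (3 reads). Reads are PCR copies without molecular identifiers, so all intervals and limits below are 95% ones for counting error only. As a check of the labelled cell type, 7 oocyte messenger RNAs (Zp1, Zp2, Zp3, Gdf9, Bmp15, Oosp1 and Nlrp5) summed to 79.7, 100.2 and 191 reads per 1000000 matched reads at 19-24, 24-30 and 19-30 nt. Zp1 and Oosp1 were at 0 at 19-24 nt; at 19-30 nt only Gdf9 (1 read) and Nlrp5 (27.1, weighted over several places) were found. Of 4 granulosa cell messenger RNAs (Amh, Fshr, Foxl2 and Inha), the sums were 25.4, 88.5 and 0 on the same scale. MicroRNAs listed for other cells differed between the libraries too. The 8 listed for granulosa, stroma and vessel cells were Mir143, Mir145a, Mir202, Mir503, Mir199a-1, Mir199a-2, Mir214 and Mir126a. All were detected in every library, and they summed to 7.17%, 1.41% and 1.05% of microRNA reads. At 19-24 nt Mir503 (5540 reads), Mir143 (5161) and Mir202 (3656) led the sum. Whether oocytes hold these microRNAs themselves was not tested. The 4 annotated of 6 blood microRNAs summed to 1.38%, 0.555% and 0.0593%, with Mir144 and Mir142 at 0 reads at 24-30 nt and Mir142 at 0 reads at 19-30 nt. The part of these other cells in the levels of Mir320, Mir484 and Mir877 was not tested.

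Mir320, a microRNA of the 3p arm found in many tissues, had 1447 reads at 19-24 nt, 373 at 24-30 nt and 191 at 19-30 nt. These were 0.586% (Wilson interval 0.556 to 0.617), 1.58% (1.43 to 1.75) and 0.756% (0.656 to 0.870) of the microRNA reads of each. By this share it ranked 48 of 859 hairpins with reads at 19-24 nt, 10 of 678 at 24-30 nt and 38 of 657 at 19-30 nt. It was highest in the library of longer RNA, and the 3 intervals did not overlap.

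Mir484, known in mouse heart cells for acting on the mitochondrial fission gene Fis1, had 130 reads at 19-24 nt, 3 at 24-30 nt and 19 at 19-30 nt. They made up 0.0526% (0.0443 to 0.0625), 0.0127% (0.00432 to 0.0373) and 0.0752% (0.0481 to 0.117) of microRNA reads. The 24-30 nt library was the low one here, at 3 reads, while the intervals of the 19-24 and 19-30 nt libraries overlapped. Its ranks among hairpins were 144, 233 and 119.

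By the match of the first 20 nt, Mir877 had 8 reads at 19-24 nt, 6 at 24-30 nt and 0 at 19-30 nt. Of these 14, 2 also followed the hairpin at base 22, and in 2 more base 22 lies past its end. No genome was searched for other places with the same first 20 nt. Whether the reads come from Mir877 was therefore not tested, which holds for each Mir877 value given. The counts at 19-24 and 24-30 nt are 0.00324% (0.00164 to 0.00639) and 0.0254% (0.0116 to 0.0554) of microRNA reads. The 0 at 19-30 nt allows a share of up to 0.0119%. Its ranks were 301 of 859 and 164 of 678 hairpins. All reads of the 3 hairpins matched a single place among annotated transcripts, and none of the hairpins had an antisense read in any library.

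**Figure D1:**
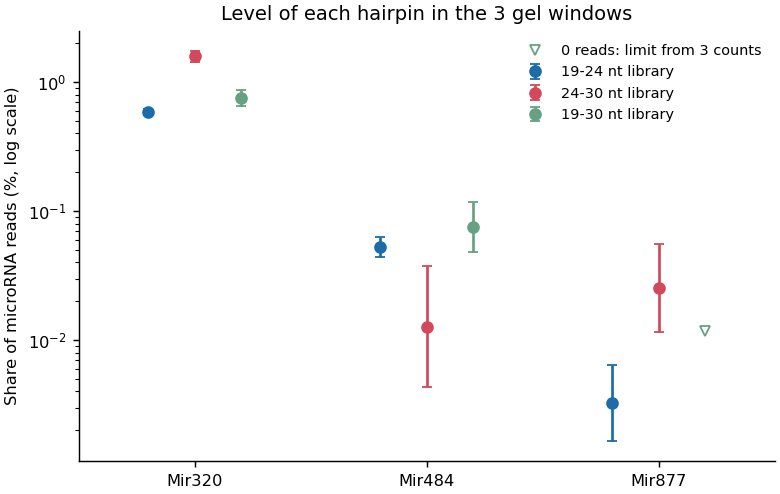
Share of microRNA reads (%, log scale) of Mir320, Mir484 and Mir877 in the 19-24, 24-30 and 19-30 nt libraries, 1 library each; points are measured shares, bars are 95% Wilson intervals and the open triangle is the limit that 0 reads allow. Mir320 lies between 0.586% and 1.58% in all libraries and is highest at 24-30 nt, Mir484 is lowest there, and Mir877 has no read at 19-30 nt.

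Set against each other as shares of microRNA reads, the 2 windows that divided the RNA gave Mir320 at 0.371 (interval 0.331 to 0.417) in the 19-24 over the 24-30 nt library. Mir877 also had a lower share in the 19-24 nt library, with a ratio of 0.127 (0.0388 to 0.446) from 8 against 6 reads. Mir484 had the higher share there, with a ratio of 4.14 (1.39 to 20.3) resting on 3 reads in the 24-30 nt library; it was 1.39 (0.370 to 11.7) with inserts sized at 19 to 24 nt only and 2.94 (0.781 to 24.8) with whole inserts required to match, and both intervals include 1. Over the 317 hairpins with at least 10 reads in the pair of libraries, 22.4% were lower and 52.7% higher by more than 2-fold in the 19-24 nt library, and the median ratio was 2.29. Counted from the lowest ratio, Mir877 ranked 41, Mir320 63 and Mir484 217 of these 317, so the 3 hairpins did not lie together. Mir320's ratio depends on what is counted. Of all matched reads it was 4.24. With whole inserts required to match it was 1.19, from 458 against 36 reads, a setting that needs base 21, where calls often failed in both runs. With inserts sized at 19 to 24 nt only it was 3.09 (372 against 5 reads, since reads of these runs can be sized only up to 22 nt). Mir877's was 1.46 of all matched reads.

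The 19-24 and 19-30 nt libraries both take in the usual microRNA length. Here Mir320 had a ratio of 0.775 (0.666 to 0.906) in the 19-24 over the 19-30 nt library, and Mir484 one of 0.70 (0.431 to 1.20), whose interval includes 1. For Mir877, 8 against 0 reads set no more than a lower limit of 0.175 on the ratio. Of the 334 hairpins counted, 36.5% were lower and 38.9% higher by more than 2-fold, the median ratio was 1.02, and Mir320 and Mir484 ranked 141 and 137 from the lowest. As a share of all matched reads the ratio of Mir320 was 3.53 and that of Mir484 3.19, above 1 in place of below it.

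The arm and the start of the reads are the features by which the hairpins could be told from one another. Of 2011 Mir320 reads, 2009 (99.9%, interval from 99.6%) lay on the 3p arm, and the other 2, 1 in the 19-24 and 1 in the 24-30 nt library, began at bases 16 and 26 of the hairpin. All 152 Mir484 reads lay on the 5p arm (interval from 97.5%). Reads assigned to Mir877 lay on both arms, and 10 of 14 were 5p (71.4%, interval 45.4 to 88.3). The 4 on the 3p arm were all from the 19-24 nt library. Because the origin of these reads is unsettled, whether Mir877 itself used both arms was not tested. The leading arm held a median of 98.98% of reads over the 185 hairpins, so reads from nearly 1 arm alone were common among them.

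Mir320 reads began at base 48 of the hairpin (position 70443557 of chromosome 14) in 1808 of 2011 cases, 89.9% (88.5 to 91.1). By library this start held 1287 reads (88.9%) at 19-24 nt, 344 (92.2%) at 24-30 nt and 177 (92.7%) at 19-30 nt. A second start 1 base further, at base 49, held 139, 22 and 12 reads, 8.60% in all. Base 50 held 16 reads and base 47 held 7. Since the seed is counted from the first base of the read, the reads from base 49 carry a seed moved by 1 base. The median hairpin had 96.9% of its reads at the leading start, with a 5th to 95th percentile of 46.6% to 100%, and 59 of the 185 were below Mir320.

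Mir484 reads began at base 5 of the annotated hairpin, which is base 1 of the mature sequence printed above, in 149 of 152 cases (98.0%, 94.4 to 99.3). These were 128 of 130 reads at 19-24 nt, 2 of 3 at 24-30 nt and 19 of 19 at 19-30 nt. The other 3 reads began at bases 2 and 7. The median hairpin had 96.9% of its reads at 1 start.

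Reads assigned to the 5p arm of Mir877 began on the first base of the Abcf1 intron in 8 of 10 cases, 3 at 19-24 nt and 5 at 24-30 nt, and 2 bases further in the other 2. None of these 8 followed the hairpin at base 22, so their origin is unsettled. That first base is also base 1 of mmu-miR-877-5p. On the 3p arm, 2 reads began at base 63, which is base 1 of mmu-miR-877-3p, and 2 at base 65. The last 2 were sized at 22 nt and so ran 1 base past the last base of the intron, where both had T while the next exon begins with G. Abcf1 itself, read as messenger RNA fragments, had 2, 0 and 0 reads.

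**Figure D2:**
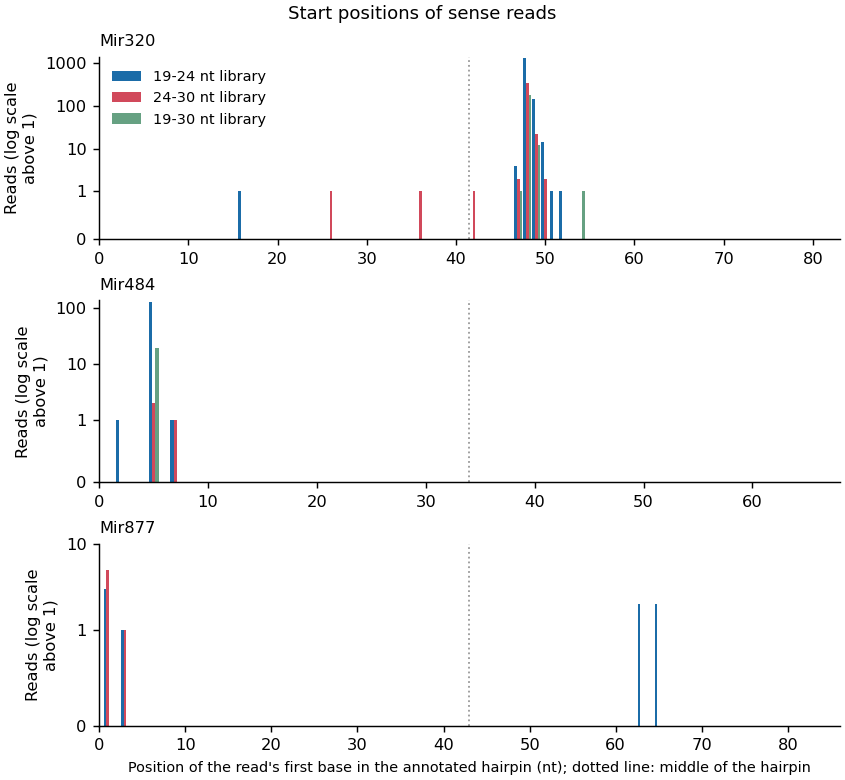
Reads (logarithmic above 1) by the position of their first base in the annotated hairpin (nt from its 5′ end) for Mir320, Mir484 and Mir877, with bars for the 19-24, 24-30 and 19-30 nt libraries and a dotted line at the middle of each hairpin. Mir320 reads stand right of the line at base 48, with a smaller group at base 49, Mir484 reads left of it at base 5, and Mir877 reads on both sides.

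Beyond the first 20 nt, which had to match, the agreement with the hairpins differed. At base 22 of the read the hairpin's base was found in 135 of 142 Mir484 reads (95.1%). For Mir320 it was found in 69.2% of reads at 19-24 nt, 70.8% at 24-30 nt and 68.0% at 19-30 nt, against 86.4%, 93.7% and 91.2% over all other hairpins. In Mir320 reads from base 48, position 22 counted from the read's 5′ end, the letters in place of A were A22G in 14.6%, 18.1% and 2.38% of reads, A22C in 11.3%, 6.93% and 24.4%, and A22T in 4.49%, 3.61% and 5.36%, for the 19-24, 24-30 and 19-30 nt libraries. Where other hairpins have A at this read position, G was called in 4.28%, 13.5% and 0.830%, C in 9.57%, 3.89% and 9.48%, and T in 9.98%, 3.63% and 2.11%. The most frequent wrong letter in both sets was thus G at 24-30 nt and C at 19-30 nt, but not at 19-24 nt, where it was G in Mir320 reads and T elsewhere. The part of base calling in the Mir320 letters was not tested.

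Mir877 was the exception among the 3 hairpins. All 8 reads that begin on the first base of its intron carry A22G, and both reads from base 63 carry A22C, so these match the hairpin over their first 20 nt but not at base 22. Only the 2 reads from base 3 follow the hairpin there; in the 2 from base 65, base 22 lies past its end. With whole inserts required to match, Mir877 kept 1 read at 19-24 nt and 1 at 24-30 nt, so its level rests on the 20 nt rule. Whether the other reads come from an unannotated sequence that shares these 20 nt was not tested. For the 8 reads from the first base, base 22 lies past the 20 nt of mmu-miR-877-5p, and none of them was sized. Whether that base is linker or an added base was not tested either.

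Insert length could be read in full in the 19-30 nt library, whose reads ran to 36 nt. The 191 Mir320 inserts there were 18 to 28 nt long, with a mean of 23.3 nt and an SD over reads of 1.69 nt. The most frequent lengths were 24 nt with 56 reads (29.3%), 22 nt with 54 (28.3%), 23 nt with 29 (15.2%) and 25 nt with 24 (12.6%). Over all other hairpins the mean was 22.4 nt with an SD of 1.10 nt, and 22 nt was the most frequent length. Inserts of 24 nt or longer were 49.7% (42.7 to 56.8) of Mir320 reads against 9.92% (9.55 to 10.3) of the reads of all other hairpins, and those of 25 nt or longer 20.4% (15.3 to 26.7) against 2.96% (2.75 to 3.17). Neither pair of intervals overlapped. Among the 73 hairpins with at least 50 sized reads, Mir320 ranked 5 by mean length, after Mir30c-2 (23.9 nt), Mir30c-1 (23.8 nt), Mir200c and Mir342 (23.3 nt each), and 1 by SD, ahead of Mir182 (1.65 nt).

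**Figure D3:**
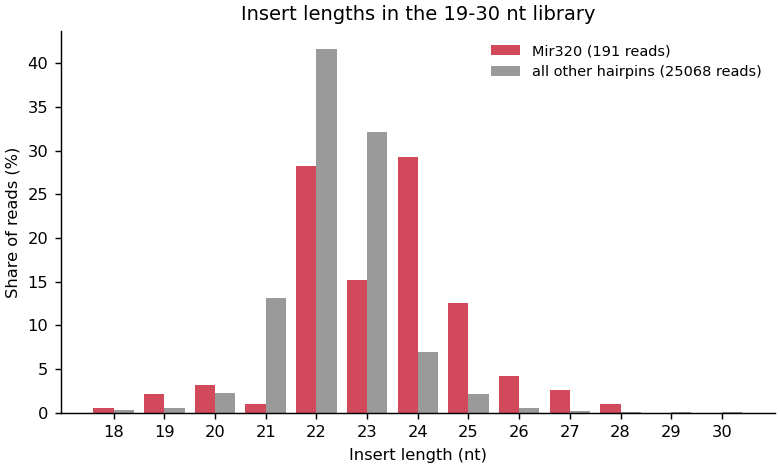
Share of reads (%) by insert length (nt) in the 19-30 nt library for Mir320 (191 reads, red, left bar) and all other hairpins (grey, right bar). Mir320 has peaks at 24 nt (29.3%) and 22 nt (28.3%) and a tail to 28 nt, while the other hairpins peak at 22 nt.

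Of the 19 Mir484 inserts in that library, 13 were 22 nt, the length of the printed mature sequence, and 2 each were 21, 23 and 24 nt. Its mean was 22.2 nt and its SD over reads 0.787 nt, against medians of 22.2 nt and 0.871 nt over the 73 hairpins. In the 19-24 nt library 60 of its 130 reads (46.2%) were sized at 22 nt, the longest insert that could be sized there, and 48.5% could not be sized.

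In the 26 nt runs a read without linker is 23 nt or longer, or has a linker that was missed. Such reads were 1071 of 1447 for Mir320 at 19-24 nt (74.0%, 71.7 to 76.2) and 368 of 373 at 24-30 nt (98.7%, 96.9 to 99.4). All other hairpins had 51.7% (51.5 to 51.9) and 78.9% (78.3 to 79.4). Mir484 had 63 of 130 at 19-24 nt and 1 of 3 at 24-30 nt. For Mir877 these were 6 of 8 and 6 of 6 reads. Mir320 thus had the larger share of reads without linker in both 26 nt runs, with intervals apart from those of all other hairpins. Since missed linkers are part of this class, the larger share of long inserts itself was measured only in the 19-30 nt library. For Mir484, 48.5% of reads had no linker at 19-24 nt, while 21.1% of its inserts in the 19-30 nt library were 23 nt or longer.

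The 3′ ends of the long Mir320 inserts were set against the hairpin. In the 19-30 nt library, 117 inserts from base 48 were 23 nt or longer, and 68 (58.1%, 49.1 to 66.7) followed the hairpin at every base after base 22. Where their last base differed from the hairpin it was C in 17 reads, T in 10, A in 4 and G in 2. In the 26 nt runs, reads from base 48 in which trimming found no linker were taken. Bases 23 to 26 could be read as hairpin bases and then linker in 221 of 882 of them at 19-24 nt and 38 of 321 at 24-30 nt. Hairpin bases followed by U were read in 281 (31.9%, 28.9 to 35.0) and 113 (35.2%, 30.2 to 40.6). The medians were 7.48% over 124 hairpins and 14.8% over 47, and Mir320 ranked 27 and 7 from the highest. These ranks are not like for like, because the share read as U depends on each hairpin's own bases. Mir138-1 and Mir138-2, with 190 such reads each at 19-24 nt, had 0.526% and 34.7%. For Mir320 the hairpin has A at each of bases 23 to 26, so a U there was never a hairpin base. The 47 include annotated entries without a Mir name, such as n-TSaga9 (0.526%) and Gm25732 (0%), which lie below that median. Mir30a, at 51.2%, was above Mir320 there. Another 42 and 6 Mir320 reads had hairpin bases followed by G, and 338 and 164 could be read in none of these ways. In the 19-30 nt run, where the insert's end was known, C and not T was the most frequent differing last base. Whether the U letters are bases added to the RNA or errors of base calling was not tested.

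Across the 73 hairpins with at least 50 sized reads, mean insert length in the 19-30 nt library and the share in the 19-24 over the 24-30 nt library had a Pearson r of -0.380 (log2 ratio) and a Spearman rho of -0.388. This is a description across hairpins, which share the libraries and their depth and are not independent replicates. The 73 include Mir320 itself and pairs with the same values, such as Mir24-1 and Mir24-2. Mir320's ratio was the lowest but 1 of the 73.

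**Figure D4:**
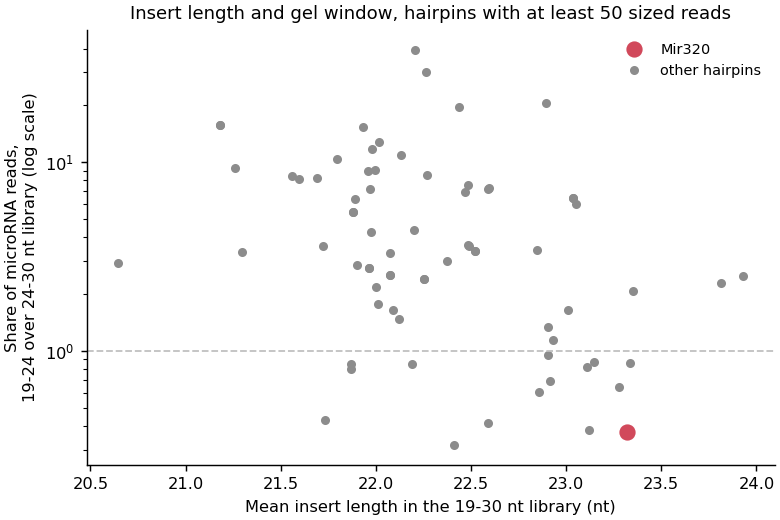
Mean insert length in the 19-30 nt library (nt) against the share of microRNA reads in the 19-24 over the 24-30 nt library (ratio, log scale) for 73 hairpins with at least 50 sized reads, with Mir320 as the large red point and a dashed line at a ratio of 1. Mir320 lies at the lower right, at 23.3 nt and 0.371, while most hairpins of about 22 nt lie above the line.

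By the pattern of their shares over the 3 libraries, the hairpins nearest to each were, for Mir320, Mir30a, Mir17 and Mir425 (log2 distances of 0.65, 0.68 and 0.71). They were Mir140, Mirlet7d and Mir652 for Mir484 (0.19, 0.25 and 0.30), and Mir181a-1, Mir181a-2 and Mir362 for Mir877 (0.35, 0.41 and 0.44), among hairpins with at least 100 reads. The nearest hairpin was farther from Mir320 than from Mir484. These distances rest on 3 libraries, and Mir181a-1 and Mir181a-2 share reads. Those of Mir877 rest on 8, 6 and 0 reads of unsettled origin, so its value at 19-30 nt is set by the 0.5 reads added.

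A list of 8 other hairpins described as made without the full Microprocessor step (the mirtrons Mir702, Mir1224, Mir1981, Mir1982 and Mir3102, and Mir668, Mir1839 and Mir344) summed to 0.0528%, 0.0339% and 0.123% of microRNA reads at 19-24, 24-30 and 19-30 nt. The sums of Mir320, Mir484 and Mir877 were 0.642%, 1.62% and 0.831%, of which Mir320 alone made up most. In the list 7, 3 and 3 hairpins had reads, Mir1224 had none in any library, and 2 reached 10 reads. Mir1839 had 103, 2 and 23 reads, a ratio of 4.92 (1.33 to 41.2) in the 19-24 over the 24-30 nt library and of 0.458 (0.289 to 0.755) in the 19-24 over the 19-30 nt library. The mirtron Mir1981 had 14, 4 and 7 reads, with ratios of 0.335 (0.105 to 1.40) and 0.205 (0.0773 to 0.599). Past 2-fold, 1 of the 2 was lower and 1 higher in the 19-24 against the 24-30 nt library, and both were lower in the 19-24 against the 19-30 nt library, beside 22.4%, 52.7% and 36.5% of all hairpins counted.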

How the data were processed

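The deposited files hold reads with base qualities, still carrying the linker, and no counts. The aligner, build and filters used by the authors are not given in the sources used here. Per the labels, sequencing was done on the Illumina 1G platform. All counts were made here, and the comparisons stayed as planned, with no tests. The 3′ linker, read from 102542 linker-only reads (17 bases), was trimmed with an overlap of at least 4 bases in 26 nt reads and 6 in 36 nt reads and up to 20% differing bases. Inserts of 18 nt or longer were used; 26 nt reads were sized up to 22 nt, and 308575 reads of the 36 nt run without linker were set aside. On simulated reads of 201 hairpins with 2% errors, at least 92.3% of 26 nt reads with inserts of 18 to 22 nt were given the right length per length. For 36 nt reads it was at least 98.8%. The simulation used the same error rate at every cycle. The real 26 nt runs had far more differing calls at cycle 21 (47.8% and 40.1%), so the accuracy of sizing in them was not tested.

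The first 20 nt had to match one of 141767 GENCODE M21 transcripts (GRCm38), on either strand; introns and intergenic sequence were not analysed here. A read with several places was weighted by their number, and reads with over 1000 places or of low complexity were left out. Later bases were not required because calls failed at read cycle 21, where 47.8% of bases of other hairpins differed at 19-24 nt and 40.1% at 24-30 nt, against 2.64% at 19-30 nt. MicroRNA reads are weighted sense reads on annotated hairpins, which include entries without a Mir name. An arm is the side of the hairpin's middle on which the centre of a read's first 20 nt lies. Shares have Wilson intervals and ratios conditional binomial ones (scipy 1.17.1); folding energies are from RNAfold 2.7.2. Hairpins named with values are the 3 members, those of the other list with at least 10 reads, and the 3 nearest by pattern (0.5 reads added, log2, centred over libraries). Those longest or widest by insert, microRNAs of the marker lists and single entries given beside a background are named too. The members and lists were chosen with earlier results of these data known, the messenger RNA markers and the Mir-named denominator after the data were seen.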

Additional observations from a re-analysis of the deposited data

Results flagged for a closer look

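In the 19-30 nt library, reads of the 36 nt run in which no linker was found were set aside, and 42 of these began in the Mir320 hairpin and 8 in the Mir484 hairpin, above the limit of 3 reads that a count of 0 allows. None of the 42 and none of the 8 followed its hairpin over bases 21 to 30 with at most 2 differences. With up to 40% of linker bases allowed to differ, a linker was found in 36 of the 42 and in 8 of the 8. Reads without linker were 18.4% (Wilson interval 13.9 to 24.0) of the Mir320 reads and 29.6% (15.9 to 48.5) of the Mir484 reads, against 26.6% (26.2 to 27.1) for all other hairpins. There was 1 such read for Mir877.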

How the results depend on the processing

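Each library stands alone, so no value has a replicate error, and Mir877 rests on 14 reads of unsettled origin. No paired analysis was possible because each window has 1 library and no result comes from a test. Of 81 alternatives, 65 moved a value by less than its counting error, which for the SDs of insert length is an approximate one. Among them, Mir484's 19-24 over 24-30 nt ratio was 1.39 (0.370 to 11.7) with sized inserts and 2.94 (0.781 to 24.8) with whole inserts, with 1 inside both intervals. With all matched reads as denominator, the 19-24 over 24-30 nt ratio was 4.24 for Mir320, 1.46 for Mir877 and 47.3 for Mir484, and the 19-24 over 19-30 nt ratio was 3.53 for Mir320 and 3.19 for Mir484; microRNA reads are 78.3%, 6.85% and 17.2% of matched reads in the 19-24, 24-30 and 19-30 nt libraries. With Mir-named hairpins only, a denominator chosen after seeing the data, Mir320's 19-24 over 24-30 nt ratio was 0.324. With whole inserts required to match, that ratio was 1.19 for Mir320, the leading start held 87.8% of Mir320 reads and 0% of Mir877 reads, the leading arm 100% of Mir877 reads, and the SD of Mir484 inserts was 0.5 nt. With inserts sized at 19 to 24 nt, Mir320's ratios were 3.09 (24-30 nt) and 0.509 (19-30 nt), its leading start held 84.1%, and Mir877's leading arm and start held 0%; here the reads of 23 nt or longer drop out of the 26 nt runs. Mir877 gave no 19-24 over 19-30 nt ratio under any setting with 0 reads at 19-30 nt, and none at 24-30 nt when sized.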
